A study of Homo sapiens with 13 samples.

Results

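Promoter-flanking peaks are sites of open chromatin that lie beside a gene start without covering one. They were taken from the ATAC-seq peak table (human genome build hg19) as the peaks that overlapped no annotated transcription start site (TSS) of any transcript and whose nearest edge was 1 to 2000 bp from the TSS of a protein-coding transcript. This gave 5263 of 129347 peaks, 2292 upstream and 2971 downstream of the nearest protein-coding TSS, at 4012 genes. At 530 genes both sides held at least 1 such peak, and TTN had the most, with 10. For 419 peaks other protein-coding TSSs within 2 kb lay on the opposite side, and the side was read from the nearest.

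ATAC-seq, in which a transposase cuts open DNA and tags it for sequencing, was carried out in T98G, a human glioblastoma cell line, in G1-phase and in M-phase. G1 cells had been deprived of serum for 72 hours. M cells had been deprived for 48 hours and then released for 36 hours into medium with serum and nocodazole. Nocodazole is a microtubule poison that arrests cells in mitosis, and the arrested cells were harvested by shaking. Each phase had 3 replicate libraries. The G1 libraries were sequenced on a HiSeq instrument, and each M replicate had a HiSeq and a NextSeq sample. The names of the deposited M columns do not say which run they hold or whether both were joined. Cell cycle phase, serum history, nocodazole and instrument therefore cannot be told apart in any comparison below.

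A core promoter, where RNA polymerase II starts, is usually a nucleosome-depleted stretch over the TSS. The sequence beside it can hold further open sites, among them proximal enhancers, the starts of other transcripts and genes of other polymerases, such as transfer RNA (tRNA) genes, which RNA polymerase III reads from promoter elements inside the gene called the A box and the B box. During mitosis chromosomes condense and most transcription stops, yet many regulatory sites stay open to a transposase.

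Values are the deposited read counts per peak, which had been brought down to the size of the smallest library. Recovered unscaled reads in peaks came to between 4333935 and 5365024 per G1 library and between 12470564 and 14202790 per M library, so M values rest on more reads. Flanking peaks held 2.42% to 2.82% of the scaled reads in peaks in G1 and 2.31% to 2.38% in M. A TSS peak was present at 6 of 8 glioblastoma marker genes (VIM, CD44, FN1, SOX9, SOX2 and OLIG2, but not NES or GFAP) and at 1 of 5 marker genes of other cell types (EPCAM). The SOX2 peak was weak, with a mean of 11.6 in G1 and 7.7 in M. The EPCAM peak, at 91.6 and 107, was near the level of the OLIG2 peak, at 85.0 and 107. The labels do not say that replicates came from separate cultures, so p-values cover the spread between these libraries, which may be technical.

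The sequences below show where the largest changes lay. The first set holds the central 200 bp of the largest rise and the largest fall on each side, on the plus strand of hg19, with matches to 8 short motifs in capitals. The motifs, searched on both strands, were AP1 (TGACTCA), FOX (TGTTTAC), RUNX (TGTGGTT), TEAD (CATTCCA), SP/KLF (GGGCGGG), ETS (CCGGAAG), E-box (CACGTG) and NF-Y (CCAAT). None of these letters overlapped another match in the windows shown.
ALOXE3 upstream rise, chr17:8023546-8023745: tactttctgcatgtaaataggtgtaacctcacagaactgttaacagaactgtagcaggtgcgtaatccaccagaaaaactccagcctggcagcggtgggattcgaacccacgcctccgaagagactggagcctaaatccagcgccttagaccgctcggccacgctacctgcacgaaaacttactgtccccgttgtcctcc
INMT upstream fall, chr7:30790598-30790797: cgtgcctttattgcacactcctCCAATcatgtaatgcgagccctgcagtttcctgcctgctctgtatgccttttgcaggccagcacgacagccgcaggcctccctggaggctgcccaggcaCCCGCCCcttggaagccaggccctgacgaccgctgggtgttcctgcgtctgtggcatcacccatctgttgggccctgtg
KCTD2 downstream rise, chr17:73030835-73031034: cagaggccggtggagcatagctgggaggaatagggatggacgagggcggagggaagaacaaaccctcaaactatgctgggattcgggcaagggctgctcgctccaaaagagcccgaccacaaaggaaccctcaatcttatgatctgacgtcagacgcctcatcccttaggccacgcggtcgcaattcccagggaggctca
TRIM34 downstream fall, chr11:5642429-5642628: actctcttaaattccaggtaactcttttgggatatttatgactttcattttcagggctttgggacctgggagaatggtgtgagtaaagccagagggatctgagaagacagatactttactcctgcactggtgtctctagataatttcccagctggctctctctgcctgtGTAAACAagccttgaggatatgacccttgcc
The INMT window held an NF-Y match and an SP/KLF match, and the TRIM34 window held a FOX match. Over the central windows of all peaks, 22.0% held the NF-Y letters, 6.19% the SP/KLF letters and 2.85% the FOX letters. The ALOXE3 and KCTD2 windows held none of the 8 motifs.

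The second set was chosen after the values were seen. It shows 111 bp around a match to the B box of tRNA genes, whose letters stand in capitals. The 4 peaks shown are among the 5 with a match in the 10 largest rises, each on the strand on which the letters read 5′ to 3′.
KCTD2 downstream, chr17:73029982-73030092, plus strand: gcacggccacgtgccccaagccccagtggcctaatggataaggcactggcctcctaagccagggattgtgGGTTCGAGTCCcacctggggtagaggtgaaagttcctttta
HJV upstream, chr1:145395503-145395613, minus strand: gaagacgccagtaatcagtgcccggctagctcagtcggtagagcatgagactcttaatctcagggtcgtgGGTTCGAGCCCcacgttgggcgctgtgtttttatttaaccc
TRIM7 upstream, chr5:180633848-180633958, plus strand: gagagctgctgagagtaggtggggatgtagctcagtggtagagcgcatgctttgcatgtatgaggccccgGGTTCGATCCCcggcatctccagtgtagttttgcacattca
ALOXE3 upstream, chr17:8023613-8023723, minus strand: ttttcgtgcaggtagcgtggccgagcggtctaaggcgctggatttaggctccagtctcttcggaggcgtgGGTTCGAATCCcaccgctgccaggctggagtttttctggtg
The annotation behind the TSS rule listed 0 nuclear tRNA transcripts among its 254413 transcripts, so a peak over a tRNA gene could count as overlapping no TSS. The letters occurred in 13 flanking peaks (0.247%), in 0.29% of all peaks and in 1.46% of the peaks over a protein-coding TSS. A match is a description of the sequence and does not show that a gene is there.

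The first question was whether the flanks kept their openness from G1 to M. On the log2(mean scaled count + 8) scale, which shrinks the change of weak peaks, 79.0% of upstream and 81.4% of downstream flanking peaks changed by less than 1.5-fold, beside 78.4% of all peaks and 54.2% of peaks over a protein-coding TSS. These shares follow signal level: under a mean of 10 scaled reads 91.5% upstream and 90.2% downstream were within 1.5-fold, and at a mean of 100 or more 43.4% and 48.3% were, beside 45.9% of TSS peaks at that level. The median M against G1 change was 0.04 upstream and 0.05 downstream, against 0.07 over all peaks, 0.45 over TSS peaks and 0.04 over distal peaks, which lie more than 2 kb from every TSS. Median scaled counts of upstream flanking peaks were 9.9, 12.5 and 11.0 in the G1 libraries and 10.3, 10.7 and 10.6 in the M libraries. Those of downstream flanking peaks were 9.9, 11.7 and 11.0 in G1 and 11.1, 10.7 and 11.1 in M. On both sides the M libraries lay inside the range of the G1 libraries, whereas at TSS peaks all M medians (186, 202 and 209) were above all G1 medians (137, 127 and 159).

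**Figure D1:**
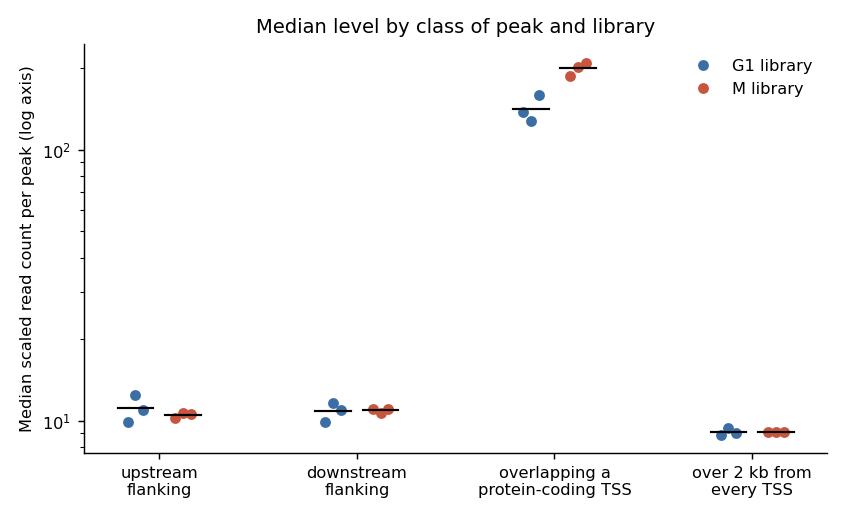
Median scaled read count per peak (log axis) in each of the 6 libraries for upstream flanking, downstream flanking, TSS-overlapping and distal peaks, with 1 point per library and a black line at the mean of 3 libraries. Flanking peaks sat at 9.9 to 12.5 in every library, close to distal peaks, and TSS peaks sat at 127 to 209, with M above G1.

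Some flanks did change. Of the flanking peaks, 1309 upstream and 1714 downstream had enough reads to be tested (a scaled count of about 10 in at least 3 libraries). Upstream, 159 rose and 163 fell in M, which is 12.1% and 12.5% of those tested, at an adjusted p under 0.05 by limma, and 27.3% of all tested peaks were called in either direction. Downstream, 189 rose and 164 fell, which is 11.0% and 9.57%. Over all 73121 tested peaks 14.3% rose and 13.1% fell. On both sides the share that rose was below that of all peaks, which turned under the loess normalization described next. Peaks over a protein-coding TSS rose in 48.8% and fell in 4.88%, and distal peaks rose in 6.17% and fell in 15.5%. All M libraries were above all G1 libraries at 18.8% of tested upstream and 17.7% of tested downstream flanks, beside 19.7% of all tested peaks, and below them at 19.5% and 15.5%, beside 18.6%.

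The direction split depended on how libraries were scaled. With every library set to an equal total in peaks, 89 upstream peaks rose and 324 fell, and 109 downstream peaks rose and 334 fell. These are 6.8% and 24.8% of the upstream and 6.36% and 19.5% of the downstream peaks tested. Of all tested peaks 8.67% rose and 24.7% fell under this scaling. With TMM scaling the counts were 127 and 230 upstream and 157 and 225 downstream. These are 9.7% and 17.6% upstream and 9.16% and 13.1% downstream, beside 12.1% and 17.3% of all tested peaks. With a loess normalization that follows signal level they were 160 and 158 upstream and 203 and 147 downstream. Under loess 10.3% of all tested peaks rose, below the 12.2% upstream and 11.8% downstream, and 14.3% of all fell, above the 12.1% and 8.58% of the flanks. The equal-total scaling moved the median of all peaks from 0.07 to -0.13, and the medians of flanking peaks moved with it, to -0.15 upstream and -0.14 downstream.

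The sides did not differ in level beyond the spread of the libraries. The upstream median minus the downstream median was 0.02 ± 0.03 in G1 and -0.03 ± 0.03 in M (log2 scale, SD, n = 3 libraries each), a change of -0.05 (p = 0.3, exact two-sided permutation test, adjusted p = 0.6 over 6 contrasts, where 3 against 3 cannot give less than 0.1). Against TSS peaks, the flanking median was lower by a log2 of -2.98 ± 0.19 in G1 and -3.46 ± 0.07 in M, with no overlap between phases (exact permutation p = 0.1, adjusted p = 0.3). That change of -0.48 shrank to -0.06 under the loess normalization. Against distal peaks the flanking median was higher by 0.14 ± 0.05 in G1 and by 0.14 ± 0.02 in M, a change of -0.0016 (exact permutation p = 0.9), whose sign varied with the settings.

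**Figure D2:**
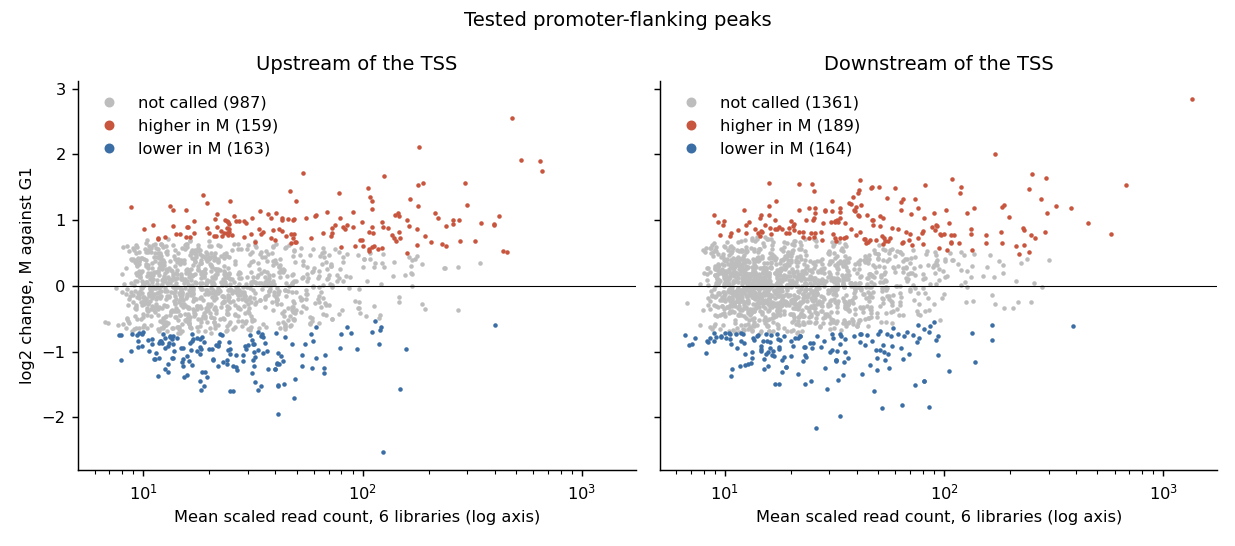
log2 change of M against G1 (limma, pseudocount 8) against the mean scaled read count over 6 libraries (log axis) for the 1309 upstream and 1714 downstream flanking peaks tested, coloured by call. Calls in both directions spread over low levels, and at a mean of 100 and more most called peaks were higher in M.

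Signal level went with direction. Upstream flanks with a mean of 10 to 20 scaled reads rose in 20 and fell in 60 of 502 tested peaks. Those at 100 or more rose in 60 and fell in 9 of 106, with a median change of 0.58. Downstream the counts were 29 and 54 of 710 at 10 to 20, and 44 and 6 of 89 at 100 or more, with a median of 0.48. Of all tested peaks 3.2% rose and 10.6% fell at 10 to 20, and 55.5% rose and 5.99% fell at 100 or more. At 100 or more, TSS peaks had a median change of 0.61 and distal peaks one of 0.18, with 5624 rises and 281 falls of 9155 and 629 rises and 352 falls of 1922, so at this level the flanks had the split of TSS peaks more than that of distal peaks. This comparison is a description over peaks, with no test.

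The peaks closest to the TSS rose least often. Within 250 bp of the TSS, 20 of 283 upstream flanks rose (7.07%) and 37 fell, and over 1500 bp from it 40 of 273 rose (14.7%) and 35 fell. Downstream, 18 of 372 rose within 250 bp (4.84%) and 24 fell, and over 1500 bp from it 48 of 306 rose (15.7%) and 44 fell. The share that rose thus ran from under to just over the 14.3% of all tested peaks with distance, on both sides, while the fall share upstream stayed between 11.6% and 13.5% and the fall share downstream ran from 5.75% to 14.4%. The level gap between peaks within 250 bp and those over 1000 bp away was -0.07 ± 0.01 in G1 and -0.06 ± 0.03 in M (exact permutation p = 0.6). In the last 200 bp inside the 2000 bp limit 33 of 239 tested flanks rose and 37 fell, and of the 187 tested peaks in the first 200 bp outside it 33 rose and 17 fell.

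**Figure D3:**
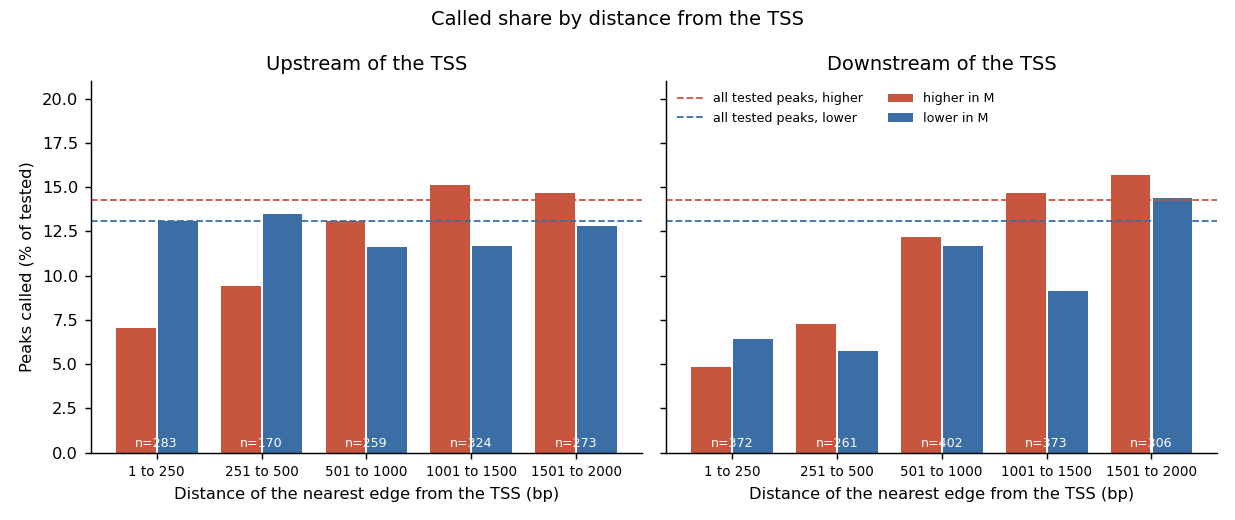
Percent of tested flanking peaks called higher (red bars) or lower (blue bars) in M by distance of the nearest edge from the TSS in bp, upstream and downstream, with the number tested in each bin and dashed lines at the shares of all tested peaks (14.3% higher and 13.1% lower). The share called higher was 7.07% upstream and 4.84% downstream within 250 bp, and 14.7% and 15.7% over 1500 bp away.

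Calls were also counted inside and outside CpG islands, GC-rich stretches that mark many promoters. Inside an island 50 upstream flanks rose (17.3%) and 16 fell (5.54%) of 289 tested, and 67 downstream flanks rose (12.2%) and 35 fell (6.39%) of 548. Outside, 109 rose (10.7%) and 147 fell (14.4%) of 1020 upstream, and 122 rose (10.5%) and 129 fell (11.1%) of 1166 downstream. Over all tested peaks 14.3% rose and 13.1% fell. The median change over all members ran the other way, at -0.01 inside and 0.06 outside upstream and 0.02 and 0.07 downstream. Flanks in islands were also stronger, with a median mean of 17.2 scaled reads against 10.3 outside upstream and 14.4 against 10.2 downstream. The level gap between flanks inside and outside islands did not change with phase beyond the spread of the libraries (0.37 ± 0.09 in G1 and 0.31 ± 0.01 in M, log2 scale, n = 3, exact permutation p = 0.4). Islands held 420 upstream (18.3%) and 816 downstream (27.5%) flanking peaks, beside 11184 of 12644 TSS peaks. Flanks were narrow, with a median width of 217 bp against 1248 bp at TSS peaks, and their median GC content was 54.5% upstream and 57.5% downstream.

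By position, the centres of most flanking peaks fell in introns, 1100 upstream and 1958 downstream, and 737 upstream centres were intergenic. Coding exons held 582 downstream centres, of which 331 were tested, 23 rose (6.95%) and 16 fell (4.83%). Intron centres rose in 70 (11.8%) and fell in 91 (15.3%) of 593 tested upstream. Downstream they rose in 148 (12.8%) and fell in 131 (11.4%) of 1152. UTR exon centres downstream rose in 10 (7.87%) and fell in 6 (4.72%) of 127. Over all tested peaks 14.3% rose and 13.1% fell.

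The largest rises upstream are given next, by the gene of the nearest TSS. These rises, and the falls below, were drawn only from called peaks with a mean of at least 50 and no overlap between phases. The peak near ALOXE3, which encodes a lipoxygenase of the skin barrier, spanned chr17:8022998-8024293, an intergenic stretch 633 bp upstream of the TSS. Its scaled counts were 132, 112 and 161 in the G1 libraries and 777, 895 and 796 in the M libraries, and it rose by 2.55 ± 0.17 (log2 change ± SE, adjusted p = 5.2e-22). All M libraries stood far above all G1 libraries at this site.

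Beside TRIM7, a ubiquitin ligase gene, the intergenic peak chr5:180633647-180635151 had 242, 185 and 228 scaled counts in G1 and 791, 855 and 880 in M, a log2 change of 1.92 ± 0.16 (adjusted p = 1.33e-16). HJV, the gene of hemojuvelin, a co-receptor in iron regulation, had a rising peak on each side of its TSS. The upstream peak, chr1:145395349-145398031, had 279, 198 and 340 in G1 and 931, 1071 and 1044 in M (log2 change 1.90 ± 0.16, adjusted p = 2.22e-16). The downstream peak, in an intron, had 44.7, 57.0 and 96.0 in G1 and 249, 280 and 300.3 in M (2.00 ± 0.21, adjusted p = 4.96e-13). Phases could not overlap at these peaks, by the rule that named them.

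The remaining upstream rises were at MTFP1 and at the gene model ENSG00000285938. MTFP1 encodes a mitochondrial fission protein, and its peak, chr22:30818631-30820810, had the highest mean of the upstream flanks and was centred in a UTR exon of the neighbouring SEC14L2. It had 341, 303 and 251 scaled counts in G1 and 952, 1047 and 1038 in M (log2 change 1.74 ± 0.16, adjusted p = 1.74e-15). The ENSG00000285938 peak, chr3:187458423-187459574, lay in an intron of BCL6, a transcriptional repressor gene, with 54.7, 55.5 and 81.0 in G1 and 276, 313 and 308 in M (2.11 ± 0.20, adjusted p = 1.02e-14).

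Downstream, the largest rise of all flanks was in an intron of KCTD2, which encodes an adaptor of a ubiquitin ligase. The peak, chr17:73029750-73032119, began 1043 bp past the TSS. It had 292, 320 and 362 scaled counts in G1 and 2175, 2453 and 2504 in M, a log2 change of 2.84 ± 0.15 (adjusted p = 2.49e-29), and was also the flank with the highest mean, 1351. It held 3 matches to the B box, the upstream HJV peak 4, the downstream HJV peak 1, the TRIM7 peak 2 and the ALOXE3 peak 1.

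Of the 13 flanking peaks with a B box match, 12 were tested, and 6 rose and 0 fell by limma, beside 11.5% rising and 10.8% falling over all tested flanks. These peaks were strong, with a median mean of 123 scaled reads against 11.1 over all flanks. The 6 that rose were among the 8 with a mean of at least 100, a level at which 60 of 106 upstream and 44 of 89 downstream flanks rose. The counts were the same by edgeR, by DESeq2 and under each scaling, and at an unadjusted p under 0.05 the falls were also 0. Besides those named, PPEF1 upstream rose, from 49.7, 78.1 and 122 in G1 to 187, 144 and 156 in M (log2 change 0.97 ± 0.22, adjusted p = 0.000248). The NR4A1 downstream peak had 106, 93.8 and 106 in G1 and 131, 145 and 156 in M (0.47 ± 0.20, adjusted p = 0.0767), and the PQBP1 downstream peak had 169, 143 and 172 in G1 and 178, 187 and 166 in M (0.13 ± 0.19, adjusted p = 0.671). So the peaks with these letters did not all rise, and the group was chosen after its values were seen.

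The other large downstream rises lay near JUNB, PPP1R15A and WNT5A. JUNB, a subunit of the AP-1 transcription factor, had a peak 1957 bp past its TSS, chr19:12904257-12905000, in an intron of a non-coding transcript of HOOK2. It had 141, 84.4 and 122 scaled counts in G1 and 336, 387 and 447 in M (log2 change 1.70 ± 0.19, adjusted p = 6.19e-12). A second JUNB peak, upstream at chr19:12900299-12901200, rose less, from 187, 217 and 233 to 343, 352 and 342 (0.69 ± 0.18, adjusted p = 0.00138).

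PPP1R15A, whose product directs a phosphatase to a translation factor in stressed cells, had a coding-exon peak, chr19:49377378-49379028, with 131, 141 and 142 in G1 and 389, 457 and 495 in M (1.63 ± 0.18, adjusted p = 3.33e-12). WNT5A, a secreted Wnt ligand, had an intron peak, chr3:55518969-55519540, with 49.7, 43.0 and 55.0 in G1 and 163, 166 and 172 in M (1.62 ± 0.21, adjusted p = 2.04e-09). MIDN, a gene of protein turnover, had the second highest mean downstream, at chr19:1251724-1253633, with 351, 383 and 300.0 scaled counts in G1 and 936, 1026 and 1052 in M (1.53 ± 0.16, adjusted p = 2.68e-13). VCAN, the matrix proteoglycan versican, had the next highest mean, at chr5:82768627-82770634, with 393, 352 and 531 in G1 and 760, 714 and 721 in M (0.79 ± 0.16, adjusted p = 4.83e-05), and was the one named peak whose direction turned under the loess normalization (-0.13).

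Falls were led upstream by INMT, a methyltransferase gene. The peak, chr7:30790354-30791040, lay 711 bp upstream of the TSS in an intron of a non-coding transcript of the same gene. Its scaled counts were 173, 184 and 293 in G1 and 24.7, 30.1 and 35.1 in M, a log2 change of -2.53 ± 0.22 (adjusted p = 4.59e-16). The lowest G1 library was thus well above the highest M library.

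GRAMD1B, which encodes a sterol transport protein, had a peak 45 bp upstream of a TSS, chr11:123461027-123461750, with 210, 181 and 290 in G1 and 76.2, 65.1 and 69.3 in M (-1.56 ± 0.20, adjusted p = 1.67e-09). GPX3, a secreted glutathione peroxidase gene, had 88.5, 108 and 98 in G1 and 25.5, 38.7 and 39.9 in M at chr5:150402925-150403497 (-1.33 ± 0.24, adjusted p = 4.1e-06). ABCC8, the sulfonylurea receptor gene, had 74.6, 55.5 and 132 in G1 and 20.6, 37.1 and 34.2 in M at chr11:17427201-17427622 (-1.25 ± 0.25, adjusted p = 5.06e-05). These peaks lay in introns, as did the one at DNAH5, an axonemal dynein gene, at chr5:13945983-13946755, with 76.6, 98.4 and 116 in G1 and 33.4, 39.6 and 34.6 in M (-1.24 ± 0.23, adjusted p = 1.4e-05).

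Downstream, TRIM34, a TRIM-family gene, fell most. Its intron peak, chr11:5642293-5642764, began 1299 bp past the TSS and had 87.5, 50 and 125 in G1 and 17.3, 18.5 and 14.9 in M (-1.86 ± 0.26, adjusted p = 1.52e-08). SGMS2, a sphingomyelin synthase gene, had 126, 85.2 and 203 in G1 and 26.4, 49.0 and 21.2 in M at chr4:108817329-108817999 (-1.84 ± 0.25, adjusted p = 3.12e-09). G1 replicate 3 was the highest library at both sites, and non-overlap of the phases was a condition for naming them.

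TBC1D2B, of a family that acts on Rab GTPases, had 89.5, 69.5 and 159 in G1 and 23.9, 20.2 and 24.1 in M at chr15:78357669-78358055 (-1.82 ± 0.25, adjusted p = 7.77e-09). TNIP1, an inhibitor of NF-kB signalling, had 81.5, 116 and 143 in G1 and 31.3, 32.6 and 38.0 in M at chr5:150417532-150418028 (-1.51 ± 0.23, adjusted p = 2.06e-07). KMT2E, a MLL-family gene, had 132, 88.3 and 149 in G1 and 32.5, 47.8 and 38.5 in M at chr7:104583996-104584543 (-1.44 ± 0.23, adjusted p = 3.76e-07). The 10 named falls all had their centre in an intron and none was in a CpG island, whereas 8 of the 10 named rises were in an island and 5 had their centre in an intron. Of all 5263 flanks, 3058 had their centre in an intron and 23.5% were in an island. The island share was 32.8% upstream and 35.0% downstream at a mean of 50 to 100, and 51.9% and 58.4% at 100 or more.

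**Figure D4:**
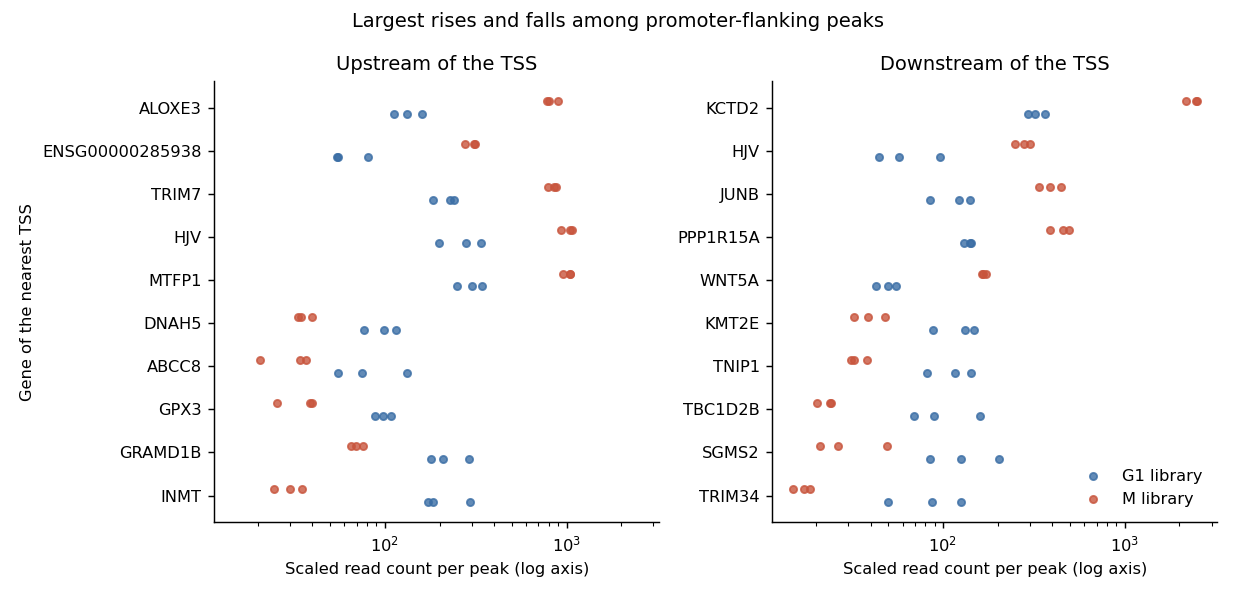
Scaled read count (log axis) in each G1 library (blue) and each M library (red) for the 5 largest rises and 5 largest falls upstream (left) and downstream (right), by gene of the nearest TSS. Only peaks whose phases did not overlap could be drawn here, by the rule that named them. KCTD2 reached 2175 to 2504 in M from 292 to 362 in G1.

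Genes grouped by function had few flanking peaks. Over 8 lists, 41 flanking peaks were found, of which 31 were tested, and 15 rose and 0 fell by limma, with a median change over the 41 of 0.41 beside 0.05 over all flanking peaks. Over all tested flanks 11.5% rose and 10.8% fell, and the share that rose grew with signal level, which was high in some lists (median mean of 72.1 in the AP-1 list). At an unadjusted p under 0.05 the falls were also 0, and edgeR and DESeq2 on the recovered reads called 14 and 15 rises and 0 falls. Under the other scalings 9 (equal totals) to 14 (loess) rose and 0 fell. These counts carry no test of the lists.

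Among AP-1 and immediate early genes, which respond within minutes to serum, 4 of 9 tested peaks rose (3 with loess) and 0 fell (median change 0.47). The risers were both JUNB peaks, KLF6 downstream (44.7, 33.6 and 25 in G1, 99.3, 105 and 83.7 in M, log2 change 1.31 ± 0.24, adjusted p = 6.05e-06) and MYC upstream (17.9, 11.7 and 16.0 against 37.5, 30.9 and 45.2, 0.98 ± 0.28, adjusted p = 0.00415). FOSL2 upstream had a change of 0.28 (adjusted p = 0.338), with overlapping phases.

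YAP and TEAD targets, genes of the Hippo pathway's transcriptional output, had 3 rises and 0 falls among 4 tested (1 rise with equal totals). AXL, a receptor tyrosine kinase gene, rose upstream, at chr19:41731410-41732626, from 180, 172 and 174 in G1 to 361, 451 and 462 in M (1.23 ± 0.18, adjusted p = 2.23e-08). CCN1, a matricellular protein gene, rose downstream by 0.63 ± 0.22 (adjusted p = 0.0251), and ANKRD1 rose upstream by 0.81 ± 0.28 (adjusted p = 0.0219). NUAK2 had a change of -0.01 (adjusted p = 0.983).

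Extracellular matrix and adhesion genes had 4 rises and 0 falls among 7 tested (1 rise with equal totals). TNC, the gene of tenascin C, rose downstream from 6.0, 2.3 and 4.0 in G1 to 33.4, 23.9 and 26.0 in M (1.57 ± 0.29, adjusted p = 7.75e-06), with LAMB1 (0.86 ± 0.26), COL12A1 (0.81 ± 0.23) and COL6A2 (0.70 ± 0.27) rising less. All G1 values of the TNC peak were under 10, so this peak, which is among the 4 rises, passed the filter for testing through M alone. CD44, a hyaluronan receptor gene, had a change of -0.24 (adjusted p = 0.598) at its upstream peak.

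The FOXO and quiescence list had 2 flanking peaks, and both rose (1 of them with loess). KLF9 had 309, 222 and 397 in G1 and 513, 615 and 660 in M (0.96 ± 0.17, adjusted p = 4.98e-06), and GADD45B, a growth-arrest gene, had 33.8, 21.9 and 13.0 in G1 and 57.3, 91.1 and 84.7 in M (1.505 ± 0.26, adjusted p = 2.14e-06). Of G1/S genes, 1 of 4 tested peaks rose (0 with equal totals), upstream of CCND1, the cyclin D1 gene (0.70 ± 0.22, adjusted p = 0.00952), and of actin and SRF target genes 1 of 5, at TPM4 (1.28 ± 0.29, adjusted p = 0.00024). The 3 flanking peaks of mitosis and G2/M genes, at FOXM1, BUB1 and TTK, had too few reads to be tested, and cytosolic ribosomal protein genes had 0 flanking peaks.

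A few genes had called flanks on both sides. They were 20 of the 530 genes with flanks on both sides, and over all tested flanks 11.5% rose and 10.8% fell. Of the 20 genes, 10 rose on both sides, 4 fell on both and 6 had opposite calls, and the names here were chosen after their values were seen. These counts carry no test. GSE1 rose upstream by 0.93 (adjusted p = 5.33e-06) and downstream by 1.19 (adjusted p = 4.12e-07). RXRA, a nuclear receptor gene, rose by 0.86 (adjusted p = 0.000229) and 0.90 (adjusted p = 0.000725). The called peaks lay beside different TSSs of the gene in 8 of the 14 genes with 1 direction and in all 6 with opposite calls. The 4 that fell were GRAMD1B, ANK2, MYL1 and TPCN1. All M values of the ANK2 downstream and MYL1 upstream peaks were under 10, so these peaks passed the filter for testing through G1 alone. IGF1R, the insulin-like growth factor receptor gene, rose downstream by 0.65 (adjusted p = 0.0295) and fell upstream by 0.80 on the log2 scale (adjusted p = 0.0252). Its upstream peak was weak, with 13.9, 14.8 and 19 scaled counts in G1 and 3.7, 3.7 and 10.6 in M. No M library reached the filter value at its library size, so this peak too passed the filter through G1 alone.

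The last question was whether a flank moved with its own promoter. Each flanking peak was paired with the nearest peak over a protein-coding TSS of the same gene, which existed for 2926 flanks and was missing for 2337. Flanks with such a peak rose in 289 (16.7%) and fell in 176 (10.2%) of 1733 tested, with a median change of 0.11. Flanks without one rose in 59 (4.57%) and fell in 151 (11.7%) of 1290, with a median of -0.01. Over all tested peaks 14.3% rose and 13.1% fell. The level gap between flanks with and without it was 0.071 ± 0.012 in G1 and 0.14 ± 0.015 in M (log2 scale, n = 3), with no overlap between phases (exact permutation p = 0.1, the smallest possible, adjusted p = 0.3).

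The gap between flank and TSS peak had a median of 7827 bp, and a flank far from its TSS peak lay beside another annotated start of the gene. Of 1670 pairs tested, 90 flanks (5.39%) rose and 420 (25.1%) fell relative to their TSS peak. For the 744 tested pairs at most 2 kb apart, 50 rose and 98 fell in relation to it, and the median changes of flank and TSS peak over such pairs were 0.22 and 0.25. For the 926 pairs farther apart, 40 rose and 322 fell, with medians of 0.03 and 0.39. Near pairs had both peaks called higher in 175 cases and far pairs in 51, the TSS peak rose with no call for the flank in 173 near and 335 far pairs, and the flank fell while the TSS peak rose in 2 near pairs and 45 far pairs. TSS peaks in pairs were stronger, with a median mean of 140 scaled reads against 11.9, and under the loess normalization the counts turned to 232 rising and 158 falling. Near and far pairs also differed in level. The median mean of TSS peaks was 95.3 in near and 179 in far pairs, and that of flanks was 14.5 and 10.5. The part of level in the difference between near and far pairs was not tested.

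**Figure D5:**
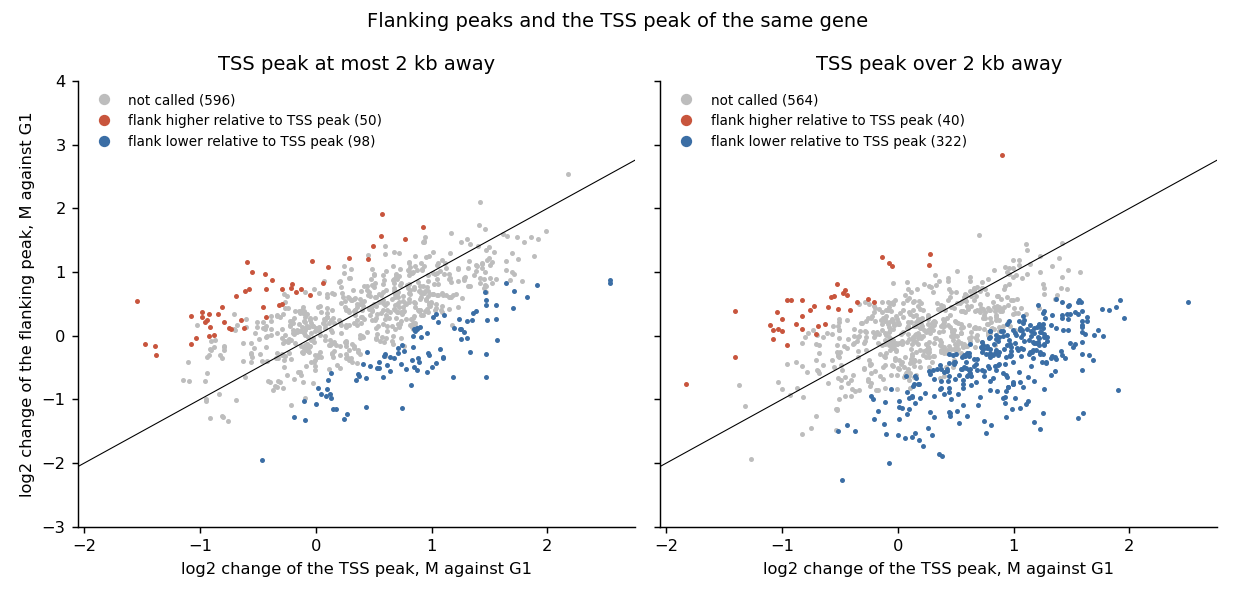
log2 change of the flanking peak against that of the TSS peak of the same gene, M against G1, from phase means with a pseudocount of 8, for tested pairs at most 2 kb apart (left) and farther apart (right), coloured by the test of their difference. Near pairs lie on both sides of the line of equal change, with 50 above it and 98 below by the test, and among far pairs 322 flanks are below it by the test and 40 above.

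In the named pairs, KCTD2 rose relative to its TSS peak by 1.95 ± 0.26 (log2 difference ± SE, adjusted p = 0.000223). That TSS peak, 10387 bp away, had 267, 220.3 and 221 scaled counts in G1 and 384, 473 and 483 in M. TRIM7 rose by 1.32 ± 0.26 (adjusted p = 0.00188) against a TSS peak 1314 bp away with 137, 115 and 187 in G1 and 221, 218 and 224 in M. Both TSS peaks also rose, by less than the flanks.

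AXL rose relative to its TSS peak by 1.37 ± 0.26 (adjusted p = 0.00141), and that peak, 6027 bp away, had 119, 102 and 123 in G1 and 97.2, 120 and 94.8 in M. FIBCD1, a chitin-binding receptor gene, and NLRP1, an inflammasome sensor gene, had relative rises of 1.78 ± 0.29 (adjusted p = 0.000509) and 1.29 ± 0.30 (adjusted p = 0.0053). At FIBCD1 the flank itself did not pass the test (0.39, adjusted p = 0.255) and the TSS peak fell by 1.39 on the log2 scale. PLA2G4C, a phospholipase gene, had a relative rise of 1.30 ± 0.35 (adjusted p = 0.0104), which was lost with a pseudocount of 1 (adjusted p = 0.0607). Its flank did not pass the test by itself (0.43, adjusted p = 0.143). The TSS peak was weak, with 18.9, 11.7 and 16 in G1 and 5.8, 9.9 and 0.5 in M, and passed the filter for testing through G1 alone.

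KMT2E had the largest relative fall of the named pairs. There the TSS peak, 67969 bp away, rose from 629, 600 and 729 in G1 to 1513, 1531 and 1587 in M while the flank fell, a difference of -2.68 ± 0.27 (adjusted p = 2.42e-05). TNIP1 (-2.28 ± 0.25, adjusted p = 5.86e-05) and FOXK2, a forkhead factor gene (-2.42 ± 0.35, adjusted p = 0.000277), had the same form. At FOXK2 the flank had 162, 294 and 134 in G1 and 68.8, 97.7 and 73.1 in M.

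Upstream, IFT122, a gene of transport in cilia, had a relative fall of -2.17 ± 0.26 (adjusted p = 0.000115), with the flank at 73.6, 48.4 and 112 in G1 and 30.1, 26.4 and 25.5 in M and the TSS peak at 182, 168 and 264 in G1 and 389, 460 and 348 in M. TCF25 had one of -2.16 ± 0.33 (adjusted p = 0.000355). VAC14, a scaffold of a lipid kinase complex, had one of -1.89 ± 0.26 (adjusted p = 0.000223), although its flank did not pass the test by itself (-0.29, adjusted p = 0.37). In the 6 named relative falls the flank lay in an intron, 32922 to 99177 bp from the TSS peak.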

How the data were processed

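The authors removed adapters (cutadapt), cut 1 base off the 3′ end of each read, mapped to hg19 with Rbowtie in QuasR (at most 3 locations), removed mitochondrial reads (samtools), called broad peaks on merged replicates of each phase (macs2) and merged the peaks of both phases. Tool versions and any shift for transposase insertion are not given in the sources used here. The deposited values are read counts per peak for the smallest library, G1 replicate 3, and for the others a scaled signal, read counts multiplied by 1 factor per library and rounded to 0.1. Whole reads were recovered at 99.9% to 100% of values within 0.0505. A column of the authors' own log2 M against G1 ratio and its SD were not used.

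TSSs and exons came from GENCODE release 44 mapped to GRCh37, the same assembly as hg19. A CpG island was a stretch of at least 200 bp with at least 50% GC and an observed over expected CpG of at least 0.6. Peaks with a value of at least 10, at median library size, in at least 3 libraries and a total of at least 15 were tested (73121). The test was limma (version 3.58.1, R version 4.3.3), run with its trend option on log2(scaled count + 8), which understates changes of low peaks, with Benjamini-Hochberg adjustment over all tested peaks. The same test was used on the flank minus TSS peak difference over all pairs. Because the values are scaled, edgeR 4.0.16 and DESeq2 1.42.0 on the recovered reads served as alternatives. Class medians were compared by exact permutation tests (scipy 1.17.1). The tests were first run on simulated data.

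On each side the 5 largest rises and falls past the threshold with a mean of at least 50 and no overlap between phases, the 3 highest means and the 3 largest relative changes of pairs each way were named, with up to 4 peaks of highest mean per gene list. Peaks of a list that passed the test but lay outside these 4, the B box peaks and the genes called on both sides were named after their values were seen. The members and lists were chosen with earlier results of these data known. The chromatin fraction and input samples were not used here, and 1 sequence is not reported here.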

Additional observations from a re-analysis of the deposited data

How the results depend on the processing

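Of the 197 recomputed summary values 165 kept their direction and size, and of the 605 recomputed values of named peaks and pairs 602 did, the others being VCAN (-0.1271 with loess), VAC14 (past the threshold with equal totals, -0.6071) and the PLA2G4C pair (2.2274, adjusted p = 0.0607, with a pseudocount of 1). With equal totals in peaks the upstream counts were 89 higher and 324 lower and the downstream counts 109 and 334, with medians of -0.1491 and -0.142, and TMM gave a downstream median of -0.0187. Of all tested peaks 8.67% were higher and 24.7% lower with equal totals. Within 1 kb of the TSS the counts were 70 and 90 upstream and 86 and 86 downstream. Requiring at least 10 in every library left 74 lower upstream and 81 downstream. Taking the TSSs of every transcript of protein-coding genes gave 272 and 274 lower. edgeR called 147 higher and 175 lower upstream and 177 and 174 downstream, and DESeq2 143 and 153, and 163 and 153.

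Relative to the TSS peak of the gene, flanks were higher in 232 and lower in 158 pairs with loess, higher in 151 with no filter and in 58 with at least 10 in every library, lower in 273 with a pseudocount of 1, and 50 higher and 213 lower within 1 kb. Pairs at most 2 kb apart, added after seeing the data, gave 50 and 98. edgeR, DESeq2 and other TSS definitions were not run on pairs. The flanking minus distal change was 0.014 with loess (exact permutation p = 0.8) and 0.1028 with at least 10 in every library (exact permutation p = 0.1). The cause of these shifts was not tested, except that a shorter distance, a stricter filter and a limit on the gap leave fewer peaks.

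Leaving out 1 library in turn gave 108 to 155 downstream lower calls, with 108 without M replicate 2, 58 to 85 pairs higher, with 58 without M replicate 1, and a flanking minus distal change of -0.0306 to 0.0175. The other counts stayed within 1.5 times. Without the B box peaks, added after seeing the data, 155 rose upstream and 187 downstream. Replicate numbers did not pair the libraries (correlations of same-numbered deviations 0.0059, -0.0101 and 0.0284). With the replicate block 165 rose and 173 fell upstream, 203 rose and 170 fell downstream, and 76 pairs were higher and 371 lower.

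Depth limits these results: the median flank has a mean near 11.1 scaled reads, where sampling error is large, and 2240 of 5263 were not tested.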

Other observations

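Short motifs in the central 200 bp of flanking peaks differed in frequency between calls, given here as shares with no test. The AP1 letters TGACTCA were in 13.2% of the 348 flanks that rose, 10.4% of the 327 that fell and 8.82% of those tested and not called, against 8.73% of all peaks. The SP/KLF letters GGGCGGG were in 15.5%, 7.34% and 10.8%, against 6.19% of all peaks and 34.8% of TSS peaks. The FOX letters TGTTTAC were in 4.02%, 6.12% and 1.92%, against 2.85% of all peaks. With the sides apart, they were in 3.7% of downstream rises and 9.15% of downstream falls, and the other way in 4.4% of upstream rises and 3.07% of upstream falls. The RUNX letters TGTGGTT were in 5.46%, 9.17% and 3.53%, against 4.75% of all peaks. Base composition and width were not compared between these sets.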
